A study of Mus musculus with 8 samples.

Results

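The genes described here are 7 transcription factors of the sympathetic lineage, chosen by name, Phox2a, Hand1, Hand2, Gata2, Gata3, Insm1 and Isl1. All 7 were among the 19224 genes of the data, and they were followed across 1303 stellate ganglion neurons and the 8 subtypes that the authors had given those neurons. The neurons came from adult C57BL6/J mice of 8 to 10 weeks, male according to the methods, in which AAV-GFP was injected into the heart and AAV-tdTomato into the front paws. There was 1 condition, every mouse carried both injections, and both stellate ganglia of a mouse were taken. Per the protocol, 16 left and right ganglia were combined for digestion, and how the animals were kept apart is not given in the sources used here. Of the mice, 5, all of batch 2, could be matched to their samples and are called replicates 1 to 5, with 1002 neurons. Another 3 mouse names with 301 neurons could not be matched and entered only pooled values. Single cells were captured with the 10x system, in which each RNA molecule carries a unique molecular identifier (UMI).

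The sympathetic lineage is specified in neural crest cells by BMP signals, which switch on a group of transcription factors that maintain one another. PHOX2A is a paired-type homeodomain protein, HAND1 and HAND2 are basic helix-loop-helix proteins, GATA2 and GATA3 are zinc finger proteins, ISL1 is a LIM homeodomain protein and INSM1 is a zinc finger protein of neuroendocrine progenitors. Together they switch on the enzymes and transporters of noradrenaline, among them Th and Dbh. Several of them stay on in the adult ganglion, where they are held to maintain the noradrenergic state.

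Depth and shared cells touched every comparison. The neurons of replicates 1 to 5 held 916296 to 1196621 UMIs per mouse, and the median neuron held between 2206.5 UMIs in Ach1 and 6773 UMIs in NA3. Of the 1303 neurons, 73 carried a cell barcode that also occurred in another library. These were 21 barcodes, each found in up to 5 of the libraries of replicates 1 to 5, and 20 of the 21 had the same subtype wherever they occurred. They made up 36.7% of the NA2 neurons of these mice (55 of 150), 32.6% of the Ach2 neurons (15 of 46) and 3 of 17 Glut neurons, and none of the neurons of NA1a, NA1b, NA1c, NA3 or Ach1. In NA2 the deposited profiles of neurons with the same barcode in different libraries correlated with a median r of 0.499 over genes in 70 pairs, against 0.397 in 755 pairs of other NA2 neurons of different libraries with fewer than 3000 UMIs. In Ach2 the medians were 0.489 in 23 pairs and 0.317 in 14 pairs. The 5 libraries may hold the same NA2 and Ach2 cells more than once, but these correlations cannot decide it. Pairs with the same barcode had no limit on UMIs, and neurons with different shared barcodes were not compared with each other. The values of NA2 and Ach2 without the neurons with shared barcodes are given beside the differences that rest on them.

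The neuronal label was checked first. All 8 pan-neuronal genes had UMIs in each of the 8 subtypes. Ach2 had the highest summed cholinergic level, 51.7 ± 12.7 UMIs per 10000 (SD, n = 2 mice), against 1.13 to 1.49 in NA1a, NA1b, NA1c, NA2 and NA3. In Ach1, in its 1 mouse, the cholinergic sum was 6.91, no UMI of Chat, the defining enzyme of acetylcholine synthesis, was found in its 64 neurons, and the summed genes of noradrenaline stood at 91.2. NA3 stood apart, because its 10 satellite glia genes summed to 261 ± 82.6 UMIs per 10000 (SD, n = 3) against 5.42 to 13.9 in the other 5 subtypes tested. Its 5 fibroblast genes summed to 16.9 ± 11.1 against 0.723 to 2.10 in those 5, and its Schwann cell genes to 11.9 ± 2.57 against 2.24 to 4.92. The 8 pan-neuronal genes summed to 75.4 ± 6.36 in NA3 and to between 141 and 228 in those 5. In Ach1 the glial sum was 119 and the sum of 5 fibroblast genes was 37.4 in its 1 mouse.

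The 7 genes lie on 7 places of the mouse genome (GRCm38). Phox2a lies at chr7:101818313-101822726 and Hand2 at chr8:57320983-57324633, both on the plus strand. Gata2 lies at chr6:88193891-88207032 and Insm1 at chr2:146221921-146225020, on the plus strand as well. Gata3 lies at chr2:9857078-9890034, Hand1 at chr11:57828705-57832818 and Isl1 at chr13:116298281-116309689, all on the minus strand. Exons of another gene overlap an exon of Phox2a (Inppl1), Hand2 (Hand2os1) and Gata3 (Gm13256) on the opposite strand, and of Gata3 also on the same strand (9230102O04Rik). The sources used here do not say whether strand was used in counting, and any part of such partners in the counts was not tested.

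The promoters of 3 members are shown because these genes had their highest mean over replicates 1 to 5 in 3 different subtypes, Phox2a in NA2, Hand2 in NA1a and Gata2 in NA1c. Each is the 250 bases before the RefSeq start (GRCm38.p6), at chr7:101818063-101818312 for Phox2a, chr8:57320733-57320982 for Hand2 and chr6:88193641-88193890 for the upstream start of Gata2, all on the plus strand. Capitals mark matches, on either strand, to 3 motifs of 6 letters. The site of the GATA factors was searched as AGATAA. The E-box of the helix-loop-helix proteins, which the HAND family binds with its partners, was searched as CATCTG. The core of homeodomain proteins, which reads the same on both strands, was searched as TAATTA.
Phox2a: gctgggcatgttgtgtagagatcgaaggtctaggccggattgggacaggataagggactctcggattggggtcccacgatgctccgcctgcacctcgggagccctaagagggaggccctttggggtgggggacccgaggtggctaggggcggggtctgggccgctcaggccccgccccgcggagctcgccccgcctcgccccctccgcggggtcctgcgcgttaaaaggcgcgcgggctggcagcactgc
Hand2: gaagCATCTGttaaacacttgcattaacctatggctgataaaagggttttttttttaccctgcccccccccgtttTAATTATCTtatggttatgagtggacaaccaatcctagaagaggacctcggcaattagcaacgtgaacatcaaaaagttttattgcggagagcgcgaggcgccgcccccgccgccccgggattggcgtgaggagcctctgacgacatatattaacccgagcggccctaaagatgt
Gata2: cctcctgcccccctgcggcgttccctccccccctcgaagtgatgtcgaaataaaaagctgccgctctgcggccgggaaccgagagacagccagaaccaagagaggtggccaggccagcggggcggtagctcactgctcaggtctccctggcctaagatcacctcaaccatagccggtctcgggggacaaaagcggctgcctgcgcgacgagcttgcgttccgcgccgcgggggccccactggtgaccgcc
The Hand2 promoter held all 3 motifs, CATCTG from 246 bases before the start, TAATTA from 175 and AGATAA on the opposite strand from 172, the last overlapping the homeodomain match. This stretch is also an exon of the antisense Hand2os1. No match was found in the 250 bases shown of Phox2a and Gata2. Of 32851 mouse promoters of the same length, 9.99% held AGATAA, 14.4% held CATCTG and 4.84% held TAATTA on either strand. Entries were matched for 5 of the 7 members.

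A mouse and subtype entered with 10 neurons or more. UMIs per 10000 were averaged over them, and log2 of the average plus 0.1 was compared between subtypes in limma with the mouse as a block. Such values existed for 6 subtypes in at least 2 mice, NA1a, NA1b, NA1c and NA2 in 5, NA3 in replicates 2, 4 and 5, and Ach2 in replicates 1 and 4. The authors made the subtypes from these same cells, so the test measures only how steadily a difference recurs over mice. Of the 7 genes 6 passed the filter on low values, and all 6 varied among the subtypes at an adjusted p below 0.05. That share is read against a background of 65.6% of the 7095 genes tested. The 6 members had a median range of 1.67 on the log2 scale between their highest and lowest subtype, and the median range of all genes tested was 1.54. Variation as such was therefore no mark of these genes, and the results below concern which subtype was high or low for which gene.

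Phox2a was highest in NA2. Its NA2 level was 9.90, 6.85, 8.75, 7.79 and 6.15 UMIs per 10000 in replicates 1 to 5. In NA1a, the next subtype, it was 4.07, 2.74, 2.67, 3.68 and 2.54, so every NA2 value lay above every NA1a value. The means were 7.89 ± 1.49 in NA2 and 3.14 ± 0.689 in NA1a (SD, n = 5). In NA1b it was 2.10 ± 0.533, and in NA1c, where the 5 mice lay between 1.68 and 2.26, it was 1.89 ± 0.218. Ach2 had 2.78 and 2.91 in its 2 mice, and NA3 had 2.47, 0.761 and 0.932 in its 3. On the log2 scale NA2 exceeded NA1a by 1.31 (SE 0.231, adjusted p = 2.55e-05, limma), NA1b by 1.87 (adjusted p = 2.52e-08) and NA1c by 1.99 (adjusted p = 6.02e-09). It exceeded NA3 by 2.51 (SE 0.274, adjusted p = 1.40e-09) and Ach2 by 1.52 (SE 0.319, adjusted p = 0.000330). All 5 differences remained past the threshold without the shared barcodes, where they were 1.10, 1.67, 1.79, 2.34 and 2.00 in the same order, and after each mouse was left out in turn. The summed pan-neuronal genes were highest in NA2 too, at 228 UMIs per 10000 against 75.4 to 164 in the other 5 subtypes. After scaling to these genes NA2 exceeded NA1a by 0.84, NA1b by 1.24, NA1c by 1.31, NA3 by 1.03 and Ach2 by 0.82, and all 5 stayed past the threshold (adjusted p at most 0.0489). With subtypes of at least 5 neurons per mouse in the fit, the excess over Ach2 was 0.81 (adjusted p = 0.122). Below NA2 the order was NA1a, Ach2, NA1b, NA1c and NA3, and no neighbours in it differed beyond their spread. Further apart, NA1a exceeded NA1c by 0.68 (adjusted p = 0.0268), a call lost without replicate 1 (0.155), 3 (0.0504) or 4 (0.0864). It was also lost after thinning of each neuron to 2000 UMIs, with pan-neuronal scaling, without a filter and with a minimum of 5 neurons.

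The neurons with shared barcodes were rich in Phox2a. In NA2 these 55 neurons, which hold only 17 different barcodes, had a mean of 10.7 UMIs per 10000 and the other 95 had 6.79. In Ach2 the 15 such neurons, with 4 different barcodes, had 8.29 and the other 31 had 1.85. If the same cells recur over libraries, these neurons are not independent. Without them the NA2 mean over mice was 6.68 ± 0.974 (SD, n = 4, since replicate 2 kept fewer than 10 NA2 neurons) and the Ach2 mean was 1.70 ± 0.0944 (SD, n = 2). The call of Phox2a as higher in Ach2 than in NA3 (log2 difference 1.00 between them in the first fit, adjusted p = 0.0372) ended without these neurons, at an adjusted p of 0.601, and also without replicate 1 (adjusted p = 0.0633), 3 (0.0514), 4 (0.647) or 5 (0.126). The same neurons differed in other members too, as the plot of neurons by barcode shows.

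**Figure D1:**
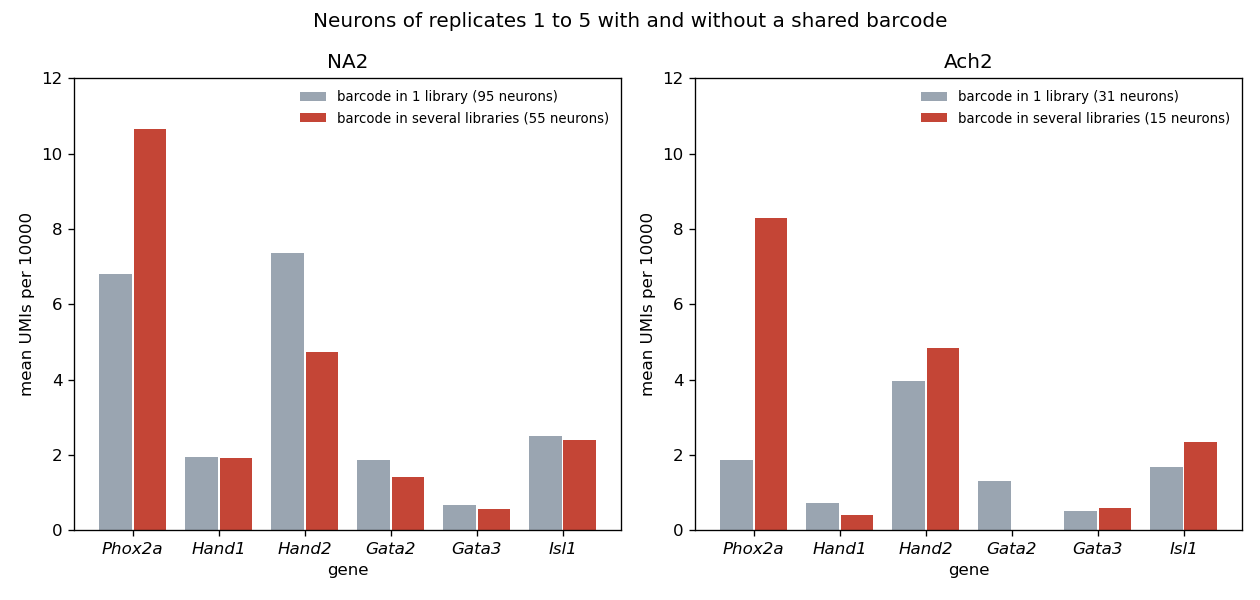
Mean level (UMIs per 10000, pooled over neurons of replicates 1 to 5) of 6 core transcription factors in NA2 and Ach2, for neurons whose barcode was in 1 library (grey) or in several (red); bars are single pooled means with no error. Phox2a stands at 10.7 against 6.79 in NA2 and at 8.29 against 1.85 in Ach2, and no Gata2 UMI was found in the 15 Ach2 neurons with a shared barcode.

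The share of neurons with Phox2a was compared between NA2 and NA1c, whose depth was similar, at a median of 2461 and 2685 UMIs per neuron. Of all 175 NA2 neurons, some of which share a barcode, 90.3% had at least 1 Phox2a UMI. Of the 120 whose barcode was in 1 library 92.5% did (95% Clopper-Pearson interval 86.2 to 96.5), and of 239 NA1c neurons 48.1% did (41.6 to 54.6). After each neuron was thinned to 2000 UMIs, the share was 82.1 ± 5.95% in NA2 and 34.3 ± 4.95% in NA1c (SD over 5 mice), and 73.0 ± 15.3% in NA2 without the shared barcodes (SD over 4 mice). In the 3 unmatched mouse names Phox2a in NA2 stood at 7.93, 5.51 and 9.69 UMIs per 10000, in 8, 9 and 8 neurons. In NA1c, 2 of these names had 1.97 and 5.95, in 7 and 12 neurons, and in NA1a the 3 had 6.18, 1.52 and 2.57, in 16, 22 and 96 neurons. The NA2 and NA1 values of these few neurons overlapped.

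**Figure D2:**
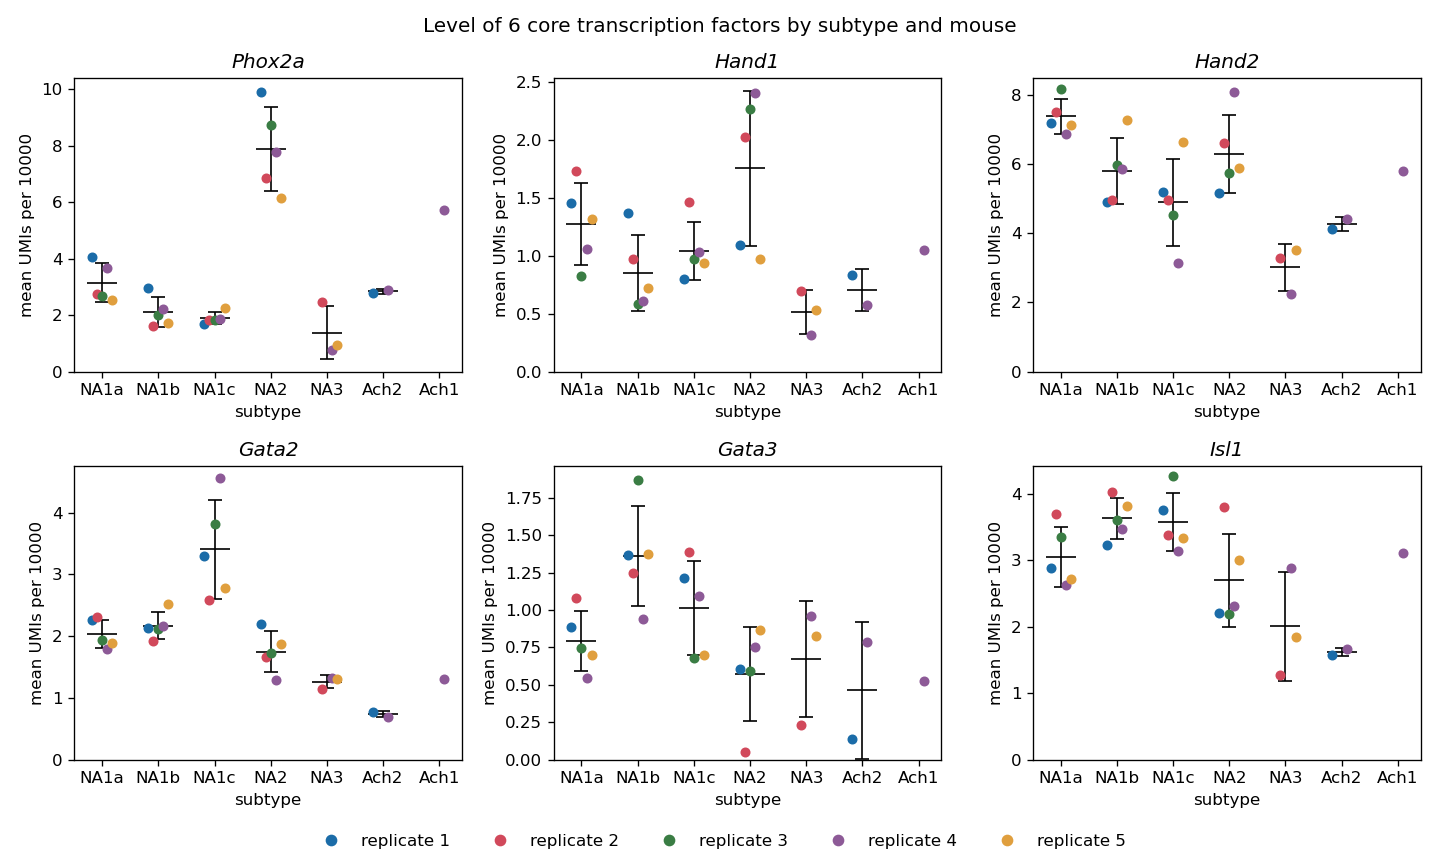
Mean UMIs per 10000 of 6 core transcription factors in each mouse (points, coloured by replicate) with at least 10 neurons of a subtype; black bars give the mean and SD over mice, and Ach1 has 1 mouse. The 5 NA2 points of Phox2a (6.15 to 9.90) lie above every other point in its panel, and the 5 NA1c points of Gata2 (2.59 to 4.56) lie above those of all other subtypes.

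Hand1, whose protein shares DNA sites and partners with HAND2, was also highest in NA2, with a wide spread. Its NA2 level was 1.09, 2.02, 2.27, 2.41 and 0.976 UMIs per 10000 in replicates 1 to 5, and 2 of these values fell within the range of NA1a (0.823 to 1.74). NA1b ranged from 0.584 to 1.37, and NA3 was lowest at 0.700, 0.317 and 0.533. Hand1 was higher in NA2 than in NA3 by 1.59 on the log2 scale (SE 0.340, adjusted p = 0.000416, limma) and than in NA1b by 0.93 (SE 0.287, adjusted p = 0.0140). These were 1.64 (adjusted p = 0.00135) and 0.95 (adjusted p = 0.0314) without the shared barcodes. The latter call was lost without replicate 3 (adjusted p = 0.114) or 4 (0.115). The excess over Ach2 of 1.09 (adjusted p = 0.0419) was lost without the shared barcodes, at 0.77 (adjusted p = 0.227), and without replicate 1 (0.0528), 2 (0.0534), 3 (0.10) or 4 (0.344). No neighbours in the order NA2, NA1a, NA1c, NA1b, Ach2 and NA3 differed beyond their spread. Across subtypes as a whole Hand1 lost its call without replicate 4 (adjusted p = 0.0626). Scaling to the pan-neuronal genes ended that call too (adjusted p = 0.642), and with it the excess of NA2 over NA1b (0.34, adjusted p = 0.433), NA3 (0.20, adjusted p = 0.727) and Ach2 (0.44, adjusted p = 0.471).

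Hand2, required in the lineage for Th and Dbh, had its highest mean in NA1a in replicates 1 to 5. There it stood at 7.19, 7.51, 8.17, 6.86 and 7.12 UMIs per 10000 in replicates 1 to 5, a mean of 7.37 ± 0.504 (SD). NA2 followed with 6.28 ± 1.12, NA1b with 5.79 ± 0.964 and NA1c with 4.89 ± 1.25 (SD, n = 5). Ach2 had 4.12 and 4.40, and NA3 had 3.29, 2.24 and 3.51, all below every NA1a, NA1b and NA2 value. NA1a exceeded NA3 by 1.32 on the log2 scale (SE 0.225, adjusted p = 1.37e-05, limma), NA2 exceeded it by 1.08 (adjusted p = 0.000281, but -0.44 after scaling to pan-neuronal genes) and NA1b by 0.97 (adjusted p = 0.00109). NA1a exceeded NA1c by 0.62 (SE 0.189, adjusted p = 0.0137), a call lost without replicate 3 (adjusted p = 0.0660) or 4 (0.0790). Thinning to 2000 UMIs, a minimum of 5 neurons and pan-neuronal scaling each ended this call too. NA1c exceeded NA3 by 0.70 (adjusted p = 0.0191, but -0.14 after that scaling), lost without replicate 1 (0.0556), 4 (0.0559) or 5 (0.0817). Neighbours in the order of levels did not differ beyond their spread. In NA2 the neurons with shared barcodes held 4.73 UMIs of Hand2 per 10000 and the others 7.35, and without the former the NA2 mean was 6.87 ± 1.84 (SD, n = 4). NA1a and NA2 were not separated, at a log2 difference of 0.12 without these neurons (adjusted p = 0.761), and NA2 was the higher by 0.06 with each profile centred on its median gene (adjusted p = 0.878). In the 3 unmatched names Hand2 stood at 10.2, 8.60 and 6.54 in NA2 and at 8.26, 4.56 and 5.80 in NA1a.

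Among the subtypes tested, Gata2 was highest in NA1c in replicates 1 to 5. Its NA1c level was 3.30, 2.59, 3.81, 4.56 and 2.77 UMIs per 10000 in replicates 1 to 5. No value of another subtype in these mice reached 2.59, apart from Glut, which was not tested. In Glut, Gata2 was 4.93 in 7 neurons of replicate 4. There it was 0, 0 and 0.609 in replicates 1, 3 and 5, with 2, 1 and 7 neurons. In the unmatched names it stood at 4.79 and 2.81 in NA1c, in 7 and 12 neurons, and at 2.33, 3.11 and 2.63 in NA1a, in 16, 22 and 96 neurons, so the subtypes overlapped there. NA1b (2.17 ± 0.217), NA1a (2.03 ± 0.232) and NA2 (1.75 ± 0.328) formed a middle group (SD, n = 5), and NA3 had 1.26 ± 0.104 (SD, n = 3). Ach2 was lowest, with 0.767 and 0.697 in its 2 mice. GATA2 and its relative GATA3 are held to keep noradrenergic genes on in sympathetic neurons. The summed genes of noradrenaline were lowest in Ach2, at 18.9 ± 5.51 UMIs per 10000 (SD, n = 2). In Ach1 they stood at 91.2, with a Gata2 level of 1.30, in its 1 mouse. Whether Gata2 and these genes are linked was not tested. On the log2 scale NA1c exceeded Ach2 by 2.09 (SE 0.301, adjusted p = 5.97e-07, limma), NA3 by 1.30 (adjusted p = 0.000149) and NA2 by 0.91 (adjusted p = 0.00139). The last was 0.77 without the shared barcodes (adjusted p = 0.0226) and 0.57 with each profile centred on its median gene (adjusted p = 0.0521). It exceeded NA1a by 0.69 (adjusted p = 0.0163), a call lost without replicate 3 (0.0741) or 4 (0.109), and NA1b by 0.60 (adjusted p = 0.0388), lost without the shared barcodes (0.0591) and without replicate 1 (0.0848), 3 (0.128) or 4 (0.148). Both calls were also lost after thinning to 2000 UMIs, with averaged natural log values and with a minimum of 5 neurons. A filter at 0.1 UMIs per 10000 ended the call against NA1b as well. Ach2 was also below NA1b by 1.49 (adjusted p = 0.000186), below NA1a by 1.40 (adjusted p = 0.000419) and below NA2 by 1.18 (adjusted p = 0.00283). The call against NA2 was lost after thinning to 2000 UMIs, with averaged natural log values, with a minimum of 5 neurons and with pan-neuronal scaling. It was not kept without replicate 1 either, which leaves Ach2 with 1 mouse. Thinning also ended the call against NA1a.

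Within Ach2, Gata2 differed between neurons with and without a shared barcode. In the 15 Ach2 neurons that carry one, which hold only 4 different barcodes, 0 Gata2 UMIs were counted, and the other 31 held 1.31 UMIs per 10000. Without the former, Ach2 had a mean of 0.954 ± 0.0608 (SD, n = 2) and stood below NA1c by 1.77 (adjusted p = 4.79e-05), NA1b by 1.16 (0.00680), NA1a by 1.07 (0.0129) and NA2 by 1.00 (0.0253). Gata2 as higher in NA1b than in NA3 (log2 difference 0.69, adjusted p = 0.0470, but -0.17 after scaling to pan-neuronal genes) was lost without them (0.0770) and without any 1 of the 5 replicates (0.0559 to 0.170).

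Gata3 was highest in NA1b, at 1.37, 1.25, 1.87, 0.941 and 1.38 UMIs per 10000 in replicates 1 to 5. NA1c spanned 0.682 to 1.39 and NA1a 0.549 to 1.08, so the 3 NA1 subtypes overlapped. NA2 ranged from 0.0490 in replicate 2 to 0.868, and Ach2 had 0.140 and 0.786. NA1b exceeded NA2 by 1.33 on the log2 scale (SE 0.383, adjusted p = 0.00882, limma), but by 0.86 without replicate 2 (adjusted p = 0.0753) and by 1.06 without the shared barcodes (adjusted p = 0.0414). It exceeded Ach2 by 1.76 (SE 0.530, adjusted p = 0.0123), but by 0.81 without replicate 1 (adjusted p = 0.496). Without replicate 1 the variation of Gata3 over subtypes also lost its call (adjusted p = 0.0827). Neighbours in the order NA1b, NA1c, NA1a, NA3, NA2 and Ach2 did not differ beyond their spread. After thinning to 2000 UMIs NA1c had the highest fitted level. The call of NA1b against NA2 was lost after thinning, without a filter and with a minimum of 5 neurons. That against Ach2 was lost without a filter and with profiles weighted by neurons.

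Isl1, which in sympathetic and sensory precursors acts in differentiation and survival, had its highest means in NA1b and NA1c in replicates 1 to 5. Its NA1b level was 3.23, 4.03, 3.60, 3.47 and 3.81 UMIs per 10000 and its NA1c level 3.75, 3.38, 4.26, 3.14 and 3.33 in replicates 1 to 5, which overlap throughout. Their log2 difference was 0.03 (95% interval -0.41 to 0.46). NA1a followed with 3.05 ± 0.453 and NA2 with 2.70 ± 0.699 (SD, n = 5). Neither NA1b nor NA1c passed the threshold against NA1a (adjusted p = 0.455 and 0.512, limma) or against NA2 (0.140 and 0.168). Neighbours in the order NA1b, NA1c, NA1a, NA2, NA3 and Ach2 did not differ beyond their spread. Ach2 had 1.57 and 1.66, below every NA1a, NA1b, NA1c and NA2 value, while NA3 had 1.28, 2.88 and 1.85. Ach2 was below NA1b by 1.07 (SE 0.296, adjusted p = 0.00633, limma) and below NA1c by 1.04 (adjusted p = 0.00780). Both calls were lost without replicate 1 (0.0607 and 0.0873) or 4 (0.0611 and 0.0604), either of which leaves Ach2 with 1 mouse that is assumed to vary like the other groups. The difference of 0.82 from NA1a (adjusted p = 0.0414) was lost without replicate 1 (0.179), 3 (0.0701), 4 (0.151) or 5 (0.0587). Without the shared barcodes the 3 differences were 1.26, 1.23 and 1.01 (adjusted p = 0.00203, 0.00250 and 0.0143). NA3 was below NA1b by 0.92 (adjusted p = 0.00618) and below NA1c by 0.89 (adjusted p = 0.00788), but without replicate 2 by 0.57 (0.151) and 0.60 (0.127).

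Insm1, a factor of progenitors that falls as neurons mature, was rarely detected in these adult neurons. In all, 10 UMIs were counted in 9 of the 1303 neurons, a share of 0.691% (95% Clopper-Pearson interval 0.316 to 1.31). None was found in 64 Ach1, 62 Ach2 and 37 Glut neurons. A count of 0 still allows a share of up to 4.69%, 4.84% and 8.11% there (3 neurons of the total, counting error only). Insm1 did not pass the filter and was not tested. The data hold neurons only, so no share could be taken in a cell type that should lack these genes.

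**Figure D3:**
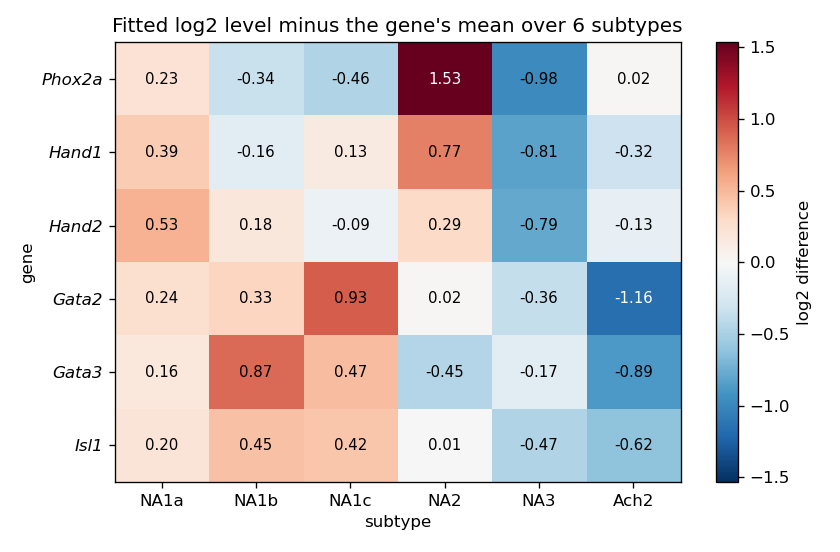
Fitted log2 level of each gene in each of 6 subtypes minus the gene's mean over the 6, from limma with the mouse as a block; red is higher and blue is lower. Phox2a in NA2 (1.53), Gata2 in NA1c (0.93) and Gata3 in NA1b (0.87) are the highest values of their rows, and all 6 values in the NA3 column are below 0, though 3 of its differences changed sign after scaling to pan-neuronal genes.

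Read by pairs of subtypes, 34 of 90 differences of the 6 tested members passed the threshold, when p was adjusted over all genes and all 15 pairs together. The background was 21.8% of all gene and pair combinations. Between NA1a and NA1b 0 of the 6 members passed in limma, 1 had an unadjusted p below 0.05, and 7.44% of all genes passed. NA1a against NA1c gave 3 of 6 (Gata2 lower, Phox2a and Hand2 higher in NA1a) where the background was 8.33%, and NA1b against NA1c gave 1, Gata2, with a background of 3.79%. Gata2 was the only member called in both comparisons with NA1c.

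NA2 differed from many genes at once. It gave 1 member against NA1a (Phox2a, background 38.8%), 3 against NA1b (Phox2a and Hand1 higher, Gata3 lower in NA2, background 45.7%) and 2 against NA1c (Phox2a higher, Gata2 lower in NA2, background 48.8%). Each of these counts was near or below its background, so their number says nothing particular of the members. In these pairs the median gene was 0.24 to 0.31 lower in NA2 on the log2 scale, opposite to the direction of Phox2a and Hand1 and the same as that of Gata2 and Gata3. Against NA3, 3 members were higher in NA2 (Phox2a, Hand1 and Hand2, background 32.3%), and against Ach2, 3 (Phox2a, Hand1 and Gata2, background 25.7%).

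NA3 had the lowest level of Phox2a, Hand1 and Hand2. NA1a exceeded it in 3 members (Phox2a, Hand1 and Hand2, background 18.9%), NA1b in 3 (Gata2, Hand2 and Isl1, background 21.3%) and NA1c in 4 (Gata2, Hand1, Hand2 and Isl1, background 24.0%). The median of all genes was 0.22 to 0.23 higher in these subtypes than in NA3, and the median of the members lay 0.94, 0.80 and 0.80 higher in NA1a, NA1b and NA1c. The glial sum of 261, the fibroblast sum of 16.9, the Schwann cell sum of 11.9 and the low pan-neuronal sum of 75.4 moved with these differences, and their part in them was not tested. After the profiles were scaled to the summed pan-neuronal genes, 1 of the 14 member calls that involve NA3 was kept, Phox2a in NA2. The sign then changed in 3 differences, Gata2 of NA1b and Hand2 of NA1c and of NA2. Of the NA1a differences, Phox2a (1.21, adjusted p = 0.000828) fell to 0.76 without replicate 4 (0.0972) and Hand1 (1.20, adjusted p = 0.00730) was lost there too (0.0683). Hand1 of NA1c (0.95, adjusted p = 0.0384) was lost without replicate 2 (0.101), 3 (0.0569), 4 (0.226) or 5 (0.0646). In bulk means of this kind, fewer neuronal transcripts per captured droplet and lower expression per neuron cannot be told apart.

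Ach2 was lower in Gata2 and Isl1 than all 3 NA1 subtypes. NA1a exceeded it in these 2 members (background 8.67%), NA1b in these and Gata3 (background 11.9%) and NA1c in these 2 (background 15.8%). Against NA3 1 member, Phox2a, passed (background 15.3%). The median of all genes lay 0.11 to 0.13 lower in Ach2 than in the NA1 subtypes. The 8 genes of noradrenaline synthesis, storage, uptake and breakdown were all called over subtypes, where the background was 65.6%, and all 8 had their lowest level in Ach2, with and without the shared barcodes. Slc18a2, the vesicular monoamine transporter, had a range of 2.88 on the log2 scale (adjusted p = 1.35e-13, limma), and Slc6a2, the noradrenaline transporter, 3.12 (adjusted p = 6.12e-13). Th, the rate-limiting enzyme of the pathway, had a range of 2.39 and was highest in NA2 (adjusted p = 1.49e-10), as was Ddc, the next enzyme (2.76, adjusted p = 8.65e-10). The 4 ranges were 2.50, 2.89, 2.09 and 2.68 without the shared barcodes, all past the threshold.

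The composition of the set was compared within mice. Among the UMIs of Phox2a and Gata2 together, the share of Phox2a was 77.8 ± 6.99% for NA2, 63.5 ± 5.10% for NA1a, 52.3 ± 4.28% for NA1b and 40.6 ± 5.38% for NA1c (SD, n = 5). The share was 77.9% for Ach1 in its 1 mouse and 50.5 ± 16.0% for NA3 (SD, n = 3). For Ach2 it was 73.2 ± 3.98%, and 65.0 ± 7.07% without the shared barcodes (SD, n = 2), so a high share was not particular to NA2. This is a share within the pair and not a comparison of the levels of 2 genes. The difference of NA1c from NA2 was -37.2 ± 11.9 points and had the same sign in 5 of 5 mice. In an exact two-sided sign-flip permutation test it gave p = 0.0625, the smallest that 5 mice allow, and 0.1 after adjustment over 24 such comparisons. Without the shared barcodes it was -33.0 ± 14.2 points with the same sign in 4 of 4 mice. Phox2a took 71.2 ± 9.47% of the summed UMIs of Phox2a and Isl1 in NA2, and 39.6 ± 4.80% in NA1c. Gata2 took 76.7 ± 6.47% of the UMIs of the 2 GATA genes in NA1c, 75.2% in NA2, 72.5% in NA1a and 63.9 ± 5.93% in NA1b. NA1c minus NA2 was 1.5 ± 13.2 points over 5 mice, with p = 0.75 in the same exact permutation test.

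Most neurons held several members. At full depth an NA1a neuron had UMIs of 4.24 ± 0.363 members and an NA1b neuron of 3.57 ± 0.562, while the numbers were 2.95 ± 0.215 for NA1c and 3.24 ± 0.346 for NA2 (SD, n = 5). Depth differed along with these numbers, with a median of 6524.5 UMIs in NA1a and 2685 in NA1c. After thinning to 2000 UMIs, which kept 813 of the 1002 neurons, they were 2.32 ± 0.112, 2.25 ± 0.144, 2.18 ± 0.133 and, in 4 mice, 2.50 ± 0.196. NA3 fell from 3.01 ± 1.09 to 1.30 ± 0.229 (n = 3) and Ach2 from 2.83 ± 0.0800 to 1.56 ± 0.442 (n = 2). When neurons with shared barcodes were left out, NA2 went from 3.56 ± 0.401 (n = 4) to 2.66 ± 0.111 (n = 3) and Ach2 from 3.04 ± 0.0544 to 1.36 ± 0.364 (n = 2). Of all 1303 neurons, 31 had no UMI of any member, 119 had 6 members and 1 had all 7. The same change with depth appeared gene by gene. Isl1 had a UMI in 84.0 ± 6.62% of NA1a and 60.3 ± 5.81% of NA1c neurons at full depth, and in 41.7 ± 6.60% and 48.7 ± 3.80% after thinning, so that the order of the 2 subtypes turned. The thinned order is the one that their levels per 10000 UMIs show.

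**Figure D4:**
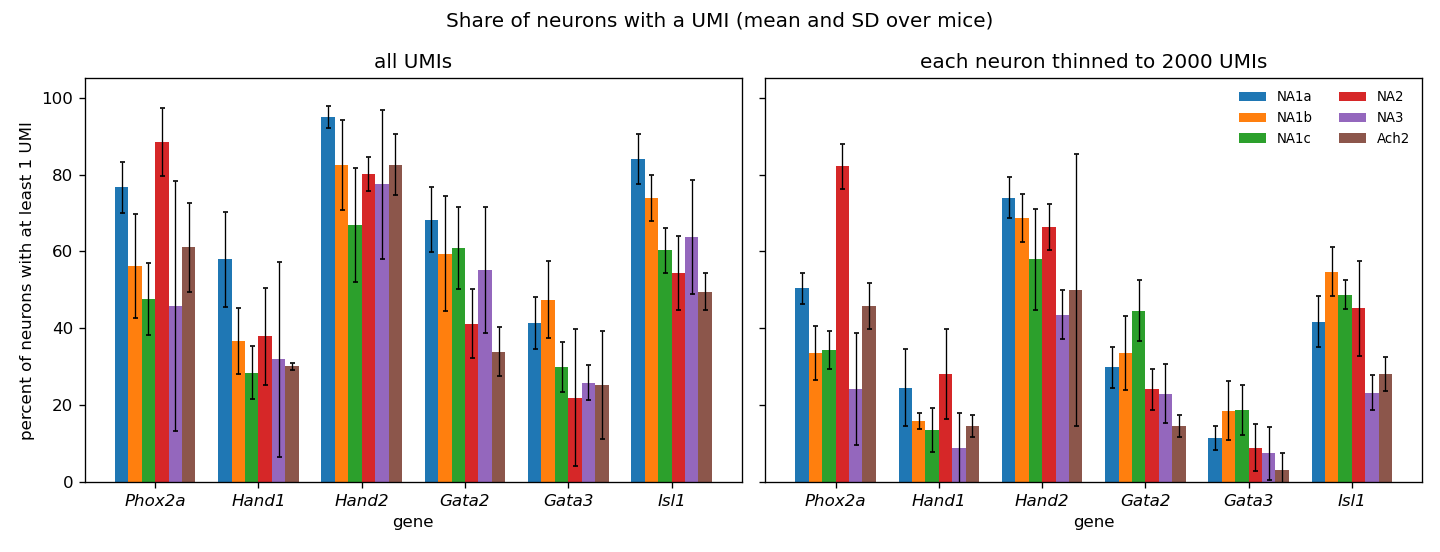
Percent of neurons with at least 1 UMI of each gene in 6 subtypes, at full depth (left) and after each neuron was thinned to 2000 UMIs (right); bars are means over mice and lines are SD. Phox2a in NA2 keeps 82.1% after thinning while in NA1a it goes from 76.7% to 50.5%, and the Isl1 bars of NA1a and NA1c change order.

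The remaining subtypes, Ach1 and Glut, could only be described. In Ach1, of which 1 mouse held 55 neurons, Phox2a stood at 5.72, Hand2 at 5.79, Isl1 at 3.10, Gata2 at 1.30, Hand1 at 1.05 and Gata3 at 0.523 UMIs per 10000. Among values from 10 neurons or more in replicates 1 to 5, its Phox2a value lay above all of NA1a, NA1b, NA1c, NA3 and Ach2. It lay below those of NA2. With 5 or 6 neurons, Ach2 had a Phox2a level of 5.31, 4.57 and 8.41 in replicates 2, 3 and 5. The fibroblast sum of 37.4 and the glial sum of 119 in the Ach1 mouse stand beside the Ach1 values. In 37 Glut neurons of all mouse names pooled, the values were 2.29 for Phox2a, 3.81 for Hand2, 1.73 for Isl1, 2.50 for Gata2, 0.516 for Hand1 and 0.453 for Gata3. Whether these differ from the other subtypes was not tested.

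Related regulators varied as well. Of 14 further autonomic transcription factors 6 were tested and 6 were called. Hmx1, a homeodomain gene of noradrenergic identity, was highest in NA2 and lowest in Ach2, with a range of 3.34 on the log2 scale (adjusted p = 8.18e-09, limma). Tfap2b, an AP-2 factor of sympathetic precursors, had the same extremes with a range of 1.73 (adjusted p = 3.89e-06). Sox11, which acts in young neurons, ran the other way, highest in Ach2 and lowest in NA2 (2.79, adjusted p = 1.58e-05), and Meis1 was highest in NA1b (1.88, adjusted p = 1.67e-06). Among 15 partners and cofactors of the members 9 were tested and 8 were called. Tcf4, which encodes an E protein that pairs with HAND proteins, was highest in NA1c and lowest in NA2 (2.09, adjusted p = 8.87e-11). Lmo1, a LIM-only cofactor, was highest in NA2 (2.26, adjusted p = 3.89e-07), while Id3, an inhibitor of E proteins, and Lmo4 were highest in NA3 (4.73 and 4.17, adjusted p = 3.15e-09 and 5.39e-09), the subtype with the glial sum of 261. The background for all these counts was the same 65.6%. Without the shared barcodes the 2 lists again gave 6 and 8 calls, and the ranges were 2.82 for Hmx1, 1.94 for Tfap2b, 3.99 for Sox11, 2.04 for Meis1, 1.90 for Tcf4 and 1.99 for Lmo1.

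The pattern of each member over the 25 mouse and subtype values was compared with those of all genes tested, after the mean of each mouse was removed. These correlations are descriptions, since the points share libraries and depth. Phox2a was most like Stmn3, a stathmin (r = 0.949), Tubb3, a neuronal tubulin (0.942), and Hras (0.940), and the values were 0.911, 0.939 and 0.929 over 24 points without the shared barcodes. Gata2 was most like Tub (0.893), Syt2, a synaptotagmin (0.892), and Arhgef28 (0.850). Hand2 was most like Rtl8a (0.893), Tmsb10 (0.821) and Elob (0.801), and Hand1 most like Gng2 (0.893), B630019K06Rik (0.841) and Scoc (0.822). Gata3 was most like Cacna2d3, a calcium channel subunit (0.831), Meis3 (0.823) and Kif26b (0.818), and Isl1 most like Pcbp3 (0.857), Kif26a (0.820) and Adap1 (0.812). Between members the highest values were 0.752 for Gata2 and Isl1, 0.733 for Phox2a and Hand1 and 0.618 for Hand1 and Hand2, and the lowest was -0.41 for Phox2a and Gata3. Without the shared barcodes Gata3 and Isl1 rose from 0.487 to 0.807, and Phox2a and Gata3 stood at -0.23.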

How the data were processed

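Per the labels, Cell Ranger 2.1.1 (submitters' processing notes) and the mm10 build were used, and the authors filtered, clustered and named the neurons with Seurat. The authors deposited ln(1 + UMIs per 10000), a natural log, and each UMI count was recovered from the smallest step of its neuron (100% of nonzero values whole within 0.01; 88.0% of values were zero). The study's methods name no doublet removal and none was applied. Values per mouse and subtype with at least 10 neurons were means of UMIs per 10000. Genes that reached 0.5 in 2 or more of them were fitted as log2(mean + 0.1) by limma 3.58.1 in R 4.3.3, with the mouse as a block, a trended prior variance and Benjamini-Hochberg adjustment at 0.05. Fold changes on this scale are understated for low genes. Subtype values of 1 mouse are paired because they come from 1 animal. After subtype means were removed, residuals correlated with a mean of 0.0615 within and -0.0616 between mice. Removing these means itself lowers the correlation of 1 subtype between mice, so part of this gap was fixed in advance and it cannot show the pairing. The members and gene lists were chosen with earlier results of these data known. Named genes are the members, list genes (at most 4 a list, smallest p) and the 3 genes most like each member. Barcode sharing and scaling to pan-neuronal genes were added as alternatives after the data were seen. The other alternatives changed the filter, pseudocount, scale, block, neuron minimum, subtypes, depth, centring, weights and mice. Intervals cover counting error only. Python 3.11.15, NumPy 2.4.6, pandas 2.3.3, SciPy 1.17.1 and matplotlib 3.10.9 were used, and the fit was tested on simulated data. Gene positions are from GENCODE vM21 and promoters from RefSeq.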

Additional observations from a re-analysis of the deposited data

Results flagged for a closer look

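Among 28 groups of 5 mice, 1 held a mouse far from the rest, where chance gives about 1 in 20. This was Insm1 in NA1b, at 0.0193 UMIs per 10000 in replicate 5 and at 0 in the other 4 mice. The value rests on 1 UMI in 41 neurons. With 4 mice at 0, any UMI in the remaining mouse gives a flag, so the rate of 1 in 20 does not apply there. A group at 0 in all its mice, as Insm1 in NA2, could not be flagged.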

How the results depend on the processing

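Over 19 alternatives, the number of genes called among subtypes was 4657 in the main fit and 3008 after thinning to 2000 UMIs, and between 4007 and 4254 when each mouse was left out. The members called stayed at 5 or 6 in all 19, with 5 or 6 when each mouse was left out. The 34 pair differences of the members became 12 when only the subtypes with a value in all 5 mice were kept, which leaves 36 tests, and 23 to 30 when each mouse was left out. With no replicate block 34 were called, of which 33 were among the 34 of the main fit. There 1 call was lost, Hand1 of NA1c against NA3, and 1 other was added. After thinning 21 of the 34 were kept, with averaged natural log values 24, with a minimum of 5 neurons 20 and with pan-neuronal scaling 15. Without the shared barcodes 30 were kept and 2 others were added, Hand2 of NA1a against Ach2 and Gata3 of NA1b against NA3. Of the 34, 6 were kept in every alternative that could give them, Phox2a of NA2 against NA1a, NA1b, NA1c and NA3, and Gata2 of Ach2 against NA1b and NA1c. Scaling to the pan-neuronal genes reversed 3, none past the threshold, Gata2 of NA1b against NA3 (-0.17), Hand2 of NA1c against NA3 (-0.14) and Hand2 of NA2 against NA3 (-0.44). It also ended the call of Hand1 over subtypes (adjusted p = 0.642). Gata3 lost its call over subtypes without a filter (0.0742), and Isl1 lost it among NA1a, NA1b, NA1c and NA2 alone (0.0885). The causes were not tested. Ach2 rests on 2 mice and NA3 on 3, and Gata3 on 648 UMIs in all, which limits the precision of their differences.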

Other observations

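In the 3 mouse names that could not be matched to a sample, Isl1 in NA1b stood at 6.20, 4.90 and 5.07 UMIs per 10000 in 21, 14 and 39 neurons. In NA2 their Gata2 was 0.861, 0.670 and 1.40 in 8, 9 and 8 neurons.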
